A study of Mus musculus with 6 samples.

Results

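The genes 2410089E03Rik and Ugt3a1 and 6 of their neighbours on mouse chromosome 15 were followed in liver, 8 genes of the 23284 counted. The members were chosen by symbol with the difference between the genotypes already known: 2410089E03Rik and Ugt3a1 for the size of their change, and Nup155, Nipbl, Slc1a3, Skp2, Lmbrd2 and Ugt3a2 because they lie beside or between them. The values of the genotypes are therefore descriptions for all 8. Whole liver was sequenced from C57BL6/J mice aged 8 weeks, in 3 libraries of the Trim24 -/- genotype (here KO1 to KO3) and 3 of wild type (WT1 to WT3). The labels name no further allele or treatment for either group, and do not describe the design of the Trim24 allele or the sex of the mice. Trim24 encodes a chromatin reader and cofactor of nuclear receptors, and the title of the series concerns fat accumulation and carcinoma of the liver.

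In KO livers 2410089E03Rik was 13.3-fold higher than in WT livers, and Ugt3a1 was at 0.170 of the WT level. Of the genes on either side of 2410089E03Rik, Nup155 was 1.29-fold higher in KO and Nipbl was at 0.946 of its WT level. Ugt3a2, the closest relative and next gene of Ugt3a1, was at 0.606 of its WT level, and for Skp2 and Lmbrd2 the values of the genotypes overlapped. Slc1a3 had at most 4 reads in any library.

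2410089E03Rik, named Cplane1 in current annotation, encodes a subunit of the CPLANE complex, which helps to build the primary cilium, and its human counterpart is mutated in Joubert syndrome. Nup155 is a structural protein of the nuclear pore, Nipbl loads the cohesin ring onto chromosomes, and Skp2 is the substrate receptor of an SCF ubiquitin ligase that marks the cell cycle inhibitor p27 for destruction. Slc1a3 is a glutamate transporter best known from astrocytes, and Lmbrd2 encodes a membrane protein of the LMBR1 family. Ugt3a1 and Ugt3a2 encode UDP-glycosyltransferases, enzymes of the endoplasmic reticulum that attach a sugar to small lipophilic molecules. The human UGT3A enzymes use sugars other than the glucuronic acid that most liver members of the superfamily use.

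In chromosome order the genes are Nup155, 2410089E03Rik, Nipbl, Slc1a3, Skp2, Lmbrd2, Ugt3a1 and Ugt3a2 (GENCODE M21, GRCm38). The end of Nup155 lies 7.86 kb before 2410089E03Rik, and the end of 2410089E03Rik lies 19.5 kb from that of Nipbl, which is read from the opposite strand. The start sites of 2410089E03Rik and Ugt3a1 are 1108 kb apart. Ugt3a1 and Ugt3a2 follow each other on the plus strand with 20.5 kb between them. Skp2 and Lmbrd2 are read from opposite strands, and their gene bodies overlap by 14.9 kb with 0 shared exon bases. The submitters' processing notes name mm9, so distances describe the order of the genes and not positions in the counted annotation.

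The promoters of the 2 genes with the largest differences are shown because they differ in base composition. Each run holds the 250 bases before the RefSeq start site on the plus strand of GRCm38.p6, 5′ to 3′, with CG dinucleotides and the motif TATAAA in capitals. The first lies at chr15:8168856-8169105 and the second at chr15:9279579-9279828.
2410089E03Rik: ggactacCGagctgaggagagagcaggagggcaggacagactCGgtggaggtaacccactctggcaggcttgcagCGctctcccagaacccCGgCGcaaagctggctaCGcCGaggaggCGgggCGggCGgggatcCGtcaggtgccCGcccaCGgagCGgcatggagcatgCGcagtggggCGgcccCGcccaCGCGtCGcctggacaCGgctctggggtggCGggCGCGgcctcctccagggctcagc
Ugt3a1: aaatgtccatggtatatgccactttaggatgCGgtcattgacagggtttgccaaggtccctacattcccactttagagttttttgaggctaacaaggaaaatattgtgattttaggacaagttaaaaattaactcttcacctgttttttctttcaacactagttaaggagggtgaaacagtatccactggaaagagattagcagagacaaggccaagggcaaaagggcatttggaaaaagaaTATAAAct
The 2410089E03Rik window held 24 CG dinucleotides and was 72.8% G or C, and 12.0% of 32851 RefSeq promoter windows of this length held as many. The Ugt3a1 window held 1 CG and was 38.4% G or C, and 92.1% of windows held at least as many. The GC box GGGCGG was found 5 times in the 2410089E03Rik window and 0 times in the Ugt3a1 window, counting both strands. At least 1 copy is in 32.7% of all windows. TATAAA was found in the Ugt3a1 window, beginning 8 bases before the annotated start, and is in 12.4% of all windows on either strand. AGGTCA, the half-site of many nuclear receptors, was in neither window (14.0% of all windows hold it). Nup155, Slc1a3, Skp2 and Lmbrd2 also had entries, so 6 of the 8 genes matched, and the windows of Nup155 and Lmbrd2 held 15 and 19 CG dinucleotides. The Slc1a3 window held 2, with a TATAAA beginning 161 bases before the start, and Skp2 had 2 annotated starts, with 0 and 21. A match describes the letters of the window and is not a binding site.

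Usable depth was low. Reads counted in genes came to between 1607276 and 2872421 in KO libraries and between 1495583 and 1732309 in WT libraries, which was 4.74% to 6.69% and 4.22% to 5.40% of all counted reads. Levels are given as CPM, counts per 1000000 reads in tested genes after TMM scaling. Trim24 had 3, 2 and 2 reads in KO1, KO2 and KO3, against 31, 45 and 44 in WT1, WT2 and WT3. Hepatocyte markers (13 of 14 listed, none at 0 in all libraries) summed to 110625 to 145947 CPM in KO and 153858 to 164373 CPM in WT. KO1 and KO3 stood apart by pancreatic acinar transcripts: the 29 listed markers summed to 1273, 15.2 and 807 CPM in KO1, KO2 and KO3, while WT1, WT2 and WT3 had 42.6, 17.2 and 12.5 CPM, with Prss1, Try10 and Amy2a5 at 0 in every library. Kupffer cell and macrophage markers (15 of 16) summed to 417 to 782 CPM in KO and 261 to 459 CPM in WT, and stellate cell and fibroblast markers (14 of 14) to 786 to 932 CPM in KO and 613 to 676 CPM in WT. Liver endothelial markers (14 of 14) summed to 496 to 631 CPM in KO and 615 to 673 CPM in WT, and cholangiocyte markers (9 of 9) to 51.4 to 76.5 CPM in KO and 40.4 to 60.1 CPM in WT. None of the markers in these last 4 lists was at 0 in all libraries. Their part in the results below was not tested. The labels do not tie a library to an animal, so the errors below describe the spread of libraries, which may be technical.

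For 2410089E03Rik, 212, 266 and 383 reads were counted in KO1, KO2 and KO3, against 17, 16 and 14 reads in WT1, WT2 and WT3. In CPM the gene was at 131, 144 and 133 in KO1, KO2 and KO3, against 11.9, 10.6 and 8.31 in WT1, WT2 and WT3. Every KO library lay far above every WT library, and the coefficient of variation was 5.18% in KO and 17.6% in WT. The mean was 136 ± 7.06 CPM in KO and 10.3 ± 1.80 CPM in WT (SD, n = 3 each). The fitted log2 fold change was 3.73 (SE 0.19). By size this was rank 14 from the top among 9180 tested genes. In bulk liver, fewer cells of a type and less RNA per cell cannot be told apart, and the same holds for more of either. With KO2 as the only KO library, which leaves out both libraries with acinar transcripts, the log2 fold change was 3.81.

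The reads of the 2 genes beside it allow a comparison within each library that needs no scaling. Of the reads counted for Nup155, 2410089E03Rik and Nipbl together, 2410089E03Rik had 39.2% in KO1 (95% exact binomial interval 35.0% to 43.4%), 41.8% in KO2 (38.0% to 45.8%) and 43.0% in KO3 (39.8% to 46.4%). In WT1, WT2 and WT3 its share was 6.03% (3.55% to 9.48%), 5.84% (3.37% to 9.31%) and 4.46% (2.46% to 7.37%). The intervals of the KO libraries overlapped each other and none reached those of the WT libraries. Intervals cover counting error only. Of the 36-base windows of its longest coding transcript, 9.50% (991 of 10434) also occur in Gm44911, a processed pseudogene on chromosome 8, where reads of either locus would look alike. Gm44911 was not analysed here.

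**Figure D1:**
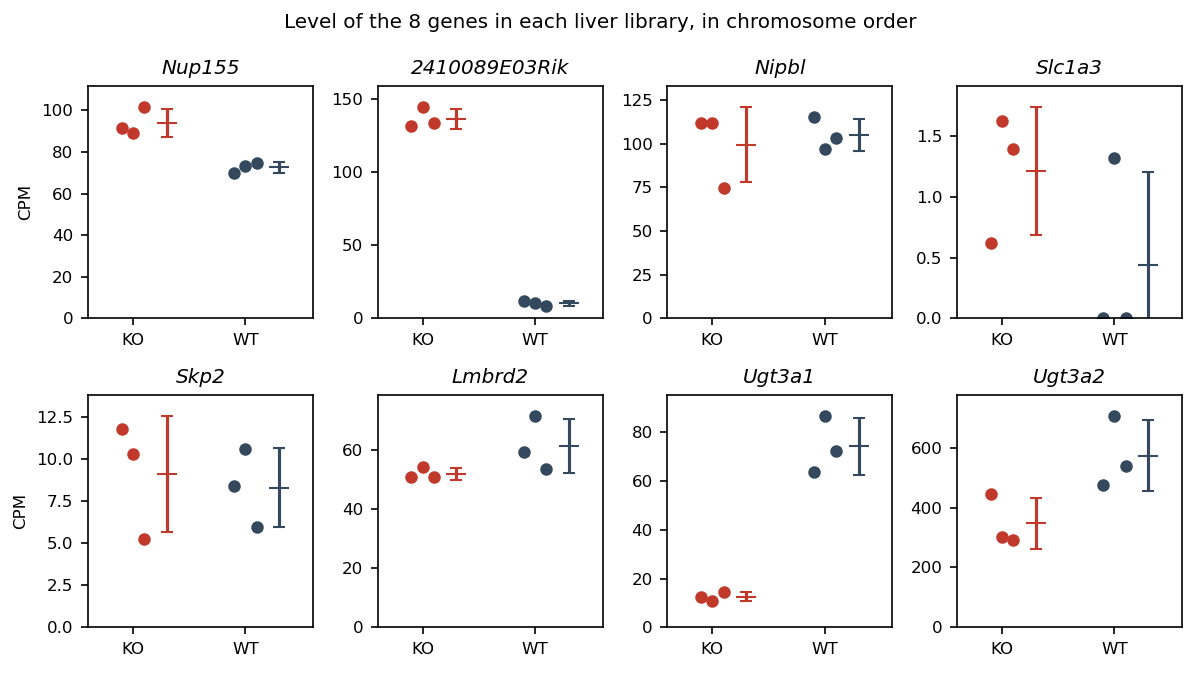
CPM of each of the 8 genes in the 3 KO (red, left) and 3 WT (blue, right) libraries, with the mean and SD beside the points and a separate linear axis for each gene. 2410089E03Rik lies at 131 to 144 CPM in KO and 8.31 to 11.9 CPM in WT, and Ugt3a1 at 10.9 to 14.6 CPM in KO and 63.6 to 86.6 CPM in WT.

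Nup155, the pore protein gene upstream, was at 91.6, 89.0 and 102 CPM in KO1, KO2 and KO3, while WT1, WT2 and WT3 had 69.9, 73.4 and 74.8 CPM. All KO libraries lay above all WT libraries, although the difference was small. Its log2 fold change was 0.37 (SE 0.15), which did not pass the threshold of an edgeR adjusted p under 0.05 over all tested genes. Nipbl, the cohesin loader gene downstream, was at 112, 112 and 74.8 CPM in KO1, KO2 and KO3, while WT1, WT2 and WT3 had 115, 97.2 and 103 CPM. The groups overlapped, with KO3 the lowest library. The log2 fold change of Nipbl was -0.090 (SE 0.18) and had the opposite sign, 0.087, without KO3.

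Slc1a3, the glutamate transporter gene, had 1, 3 and 4 reads in KO1, KO2 and KO3, against 0, 2 and 0 reads in WT1, WT2 and WT3. Scaled for depth this was a KO over WT ratio of 2.92 with an exact binomial 95% interval of 0.583 to 28.3, so no difference was detectable at this depth. A count of 0 allows up to 3 reads, or 2.10 CPM in WT1 and 1.78 CPM in WT3. The gene did not pass the filter on low counts and is the only one of the 8 that was not tested.

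Skp2, the ubiquitin ligase subunit gene, was at 11.8, 10.3 and 5.22 CPM in KO1, KO2 and KO3, while WT1, WT2 and WT3 had 8.38, 10.6 and 5.94 CPM. The groups overlapped fully at counts of 10 to 19 reads per library. Its log2 fold change was 0.075 (SE 0.39), and the sign turned to -0.15, -0.048 and -0.13 without KO1, KO2 or WT3. Lmbrd2, whose gene body overlaps that of Skp2, was at 50.8, 54.3 and 50.8 CPM in KO1, KO2 and KO3, while WT1, WT2 and WT3 had 59.4, 71.4 and 53.4 CPM. WT3 lay within the KO values, and the log2 fold change was -0.24 (SE 0.17). Neither gene passed the threshold.

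For Ugt3a1, 20, 20 and 42 reads were counted in KO1, KO2 and KO3, against 91, 131 and 122 reads in WT1, WT2 and WT3. In CPM it was at 12.4, 10.9 and 14.6 in KO1, KO2 and KO3, against 63.6, 86.6 and 72.4 in WT1, WT2 and WT3. The lowest WT library was above the highest KO library by a wide margin. The mean was 12.6 ± 1.89 CPM in KO and 74.2 ± 11.6 CPM in WT (SD, n = 3 each). The fitted log2 fold change was -2.53 (SE 0.21), rank 12 from the bottom of the 9180 tested genes. With KO2 as the only KO library it was -2.77.

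Ugt3a2 was the most abundant of the 8 genes, at 446, 302 and 293 CPM in KO1, KO2 and KO3, while WT1, WT2 and WT3 had 476, 705 and 539 CPM. The highest KO library, KO1, lay just below the lowest WT library, WT1. The mean was 347 ± 86.0 CPM in KO and 573 ± 118 CPM in WT (SD, n = 3 each). The fitted log2 fold change was -0.73 (SE 0.20). This lay at the edge of the threshold: it did not pass with edgeR (adjusted p = 0.0505), passed with DESeq2 and limma-voom, and passed without KO1, where the log2 fold change was -0.95. With any 1 of the other 5 libraries left out it did not pass.

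The share of Ugt3a1 among the reads of both UGT3A genes is a comparison within each library that needs no scaling. Most of these reads were of Ugt3a2, which was itself at 0.606 of its WT level in KO. The share therefore differed less between the genotypes than the level of Ugt3a1. This share was 2.70% in KO1 (95% exact binomial interval 1.66% to 4.14%), 3.47% in KO2 (2.13% to 5.30%) and 4.75% in KO3 (3.44% to 6.36%). In WT1, WT2 and WT3 it was 11.8% (9.60% to 14.3%), 10.9% (9.23% to 12.9%) and 11.8% (9.93% to 14.0%). No KO interval reached a WT interval. The longest open reading frames of the 2 genes are both 1572 bases long and identical at 93.3% of bases, with a longest identical run of 90 bases, and 18.0% of the 36-base windows of the Ugt3a1 transcript (398 of 2209) occur in transcripts of other genes, 369 of them in Ugt3a2. No source used here says how reads that match both genes were counted, so the split of reads between them is uncertain.

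**Figure D2:**
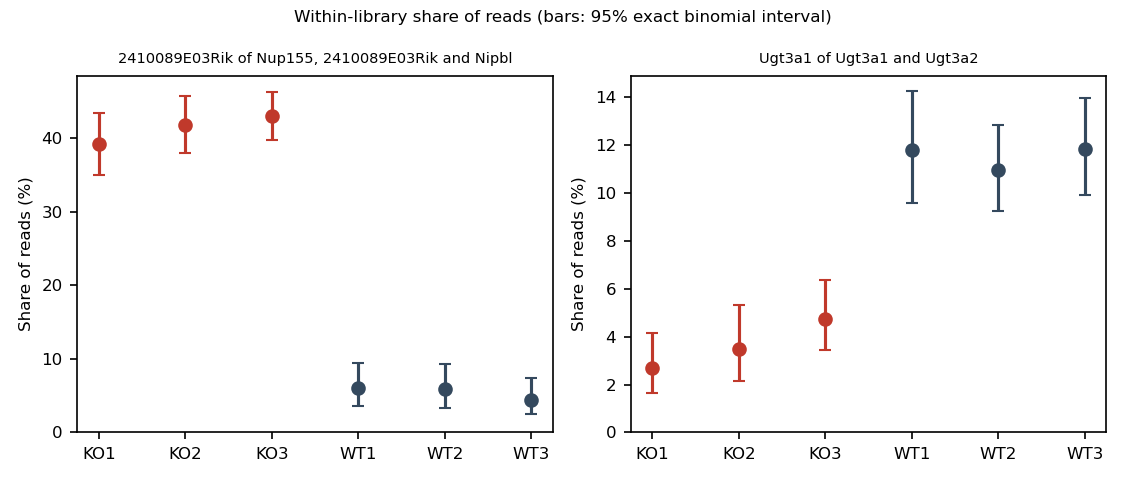
Share of reads (%) of 2410089E03Rik among its own and its 2 neighbours' reads (left panel) and of Ugt3a1 among the reads of Ugt3a1 and Ugt3a2 (right panel) in each KO (red) and WT (blue) library, with 95% exact binomial intervals. The 2410089E03Rik share is 39.2% to 43.0% in KO and 4.46% to 6.03% in WT, and the Ugt3a1 share is 2.70% to 4.75% in KO and 10.9% to 11.8% in WT.

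Across all tested genes 5.73% passed the threshold, 3.08% higher and 2.65% lower in KO (526 of 9180, 283 and 243). Of the 7 tested members 2 passed, 2410089E03Rik higher and Ugt3a1 lower, which follows from how they were chosen. KO and WT values did not overlap for 4 of the 7 (Nup155, 2410089E03Rik, Ugt3a1 and Ugt3a2), against 25.0% of all tested genes. For 2410089E03Rik and Ugt3a1 this too follows from how they were chosen. The total of 526 calls depended on single libraries. It was 772, 298 and 376 without KO1, KO2 or KO3, and 318, 274 and 222 without WT1, WT2 or WT3. 2410089E03Rik and Ugt3a1 were among the calls in all 6 fits that left out 1 library, with log2 fold changes of 3.59 to 3.84 and -2.67 to -2.41. These fits reuse the libraries by which the 2 genes were chosen.

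Levels of different genes were compared per kb of the longest coding transcript. In KO the order by mean CPM per kb was Ugt3a2 (149), 2410089E03Rik (13.0), Nup155 (12.0), Nipbl (10.6), Lmbrd2 (6.41), Ugt3a1 (5.62), Skp2 (1.47) and Slc1a3 (0.291). In WT it was Ugt3a2 (246), Ugt3a1 (33.1), Nipbl (11.2), Nup155 (9.28), Lmbrd2 (7.58), Skp2 (1.34), 2410089E03Rik (0.980) and Slc1a3 (0.106). 2410089E03Rik spanned 12.5 to 13.8 CPM per kb over the KO libraries. This range overlapped that of Nup155 (11.4 to 13.0) and lay above that of Nipbl (7.94 to 11.9). In WT it stood next to Skp2, with overlapping ranges of 0.794 to 1.13 for 2410089E03Rik and 0.960 to 1.71 for Skp2. Ugt3a1 stood next to Lmbrd2 in KO, at 4.84 to 6.51 CPM per kb against 6.27 to 6.70 for Lmbrd2, which also overlapped, while in WT no other gene's range overlapped its 28.3 to 38.6. The order depends on the length used. Per kb of all annotated exons, the KO means were 10.6 for Nipbl, 10.4 for 2410089E03Rik and 7.87 for Nup155, so that Nipbl came before both. In WT, Lmbrd2 (7.15) then came before Nup155 (6.08).

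**Figure D3:**
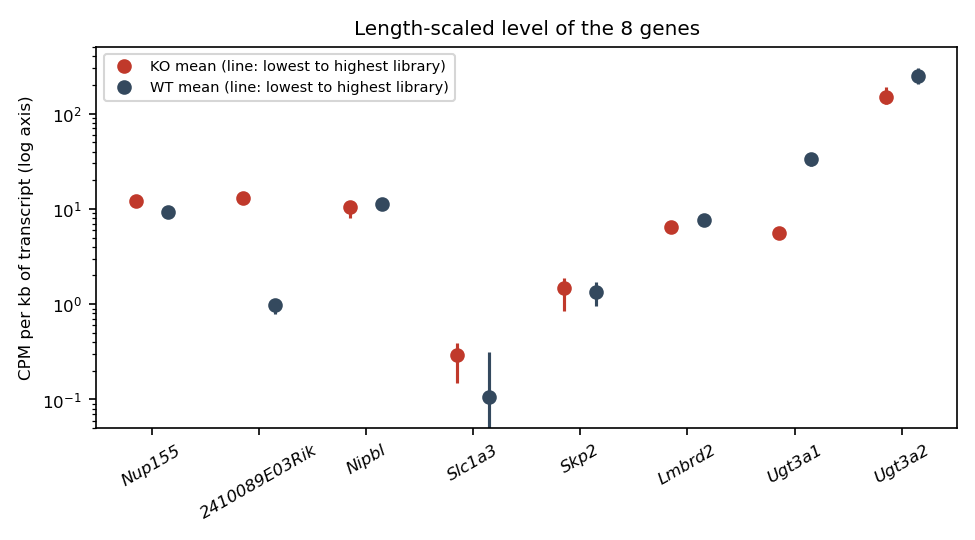
Mean level of the 8 genes in chromosome order, as CPM per kb of transcript on a log axis, in KO (red, left) and WT (blue, right), with lines from the lowest to the highest library. The line of Slc1a3 in WT is cut at the axis because 2 WT libraries had 0 reads. 2410089E03Rik is at 13.0 in KO and 0.980 in WT, and Ugt3a1 at 5.62 in KO and 33.1 in WT.

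The other genes around the 8 were taken by position, up to 2 Mb on either side. Of 28 such symbols 14 passed the filter, and 0 of them passed the threshold with edgeR, DESeq2 or limma-voom. At an unadjusted p under 0.05 there were 5 of 14, or 35.7%, against 20.3% of all tested genes. KO and WT did not overlap for 4 of 14, against 25.0% of all tested genes. The 5 were Fyb, Osmr, Rictor, Brix1 and Amacr, named after their values were seen. Fyb, an adaptor protein of T cells and myeloid cells, averaged 12.3 ± 2.58 CPM in KO and 5.30 ± 2.67 CPM in WT (SD, n = 3 each), and passed without KO1 with a log2 fold change of 1.38. Osmr, the oncostatin M receptor, averaged 16.0 ± 4.51 CPM in KO and 7.72 ± 5.24 CPM in WT. Rictor, a subunit of mTOR complex 2, averaged 50.7 ± 1.16 CPM in KO and 68.3 ± 11.1 CPM in WT. Brix1, a ribosome assembly factor, averaged 19.9 ± 1.61 CPM in KO and 13.1 ± 2.73 CPM in WT. Amacr, an enzyme of bile acid and branched fatty acid metabolism, averaged 77.3 ± 9.31 CPM in KO and 106 ± 19.5 CPM in WT.

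Other than members, no tested gene that matched the annotation lies between 2410089E03Rik and Ugt3a1. Ranbp3l, placed between Slc1a3 and Skp2, did not pass the filter, with 7, 2 and 4 reads in KO1, KO2 and KO3 against 8, 10 and 8 in WT1, WT2 and WT3. Wdr70, the neighbour of Nup155 on the far side, had 4, 9 and 9 reads in KO against 5, 5 and 11 in WT. Beyond Ugt3a2 the next tested genes are Prlr, the prolactin receptor, at 138 ± 42.2 CPM in KO and 158 ± 15.3 CPM in WT, and Agxt2, an aminotransferase, at 257 ± 10.4 CPM in KO and 287 ± 26.9 CPM in WT. Over the rest of chromosome 15, 21 of 317 tested genes (6.62%) passed.

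**Figure D4:**
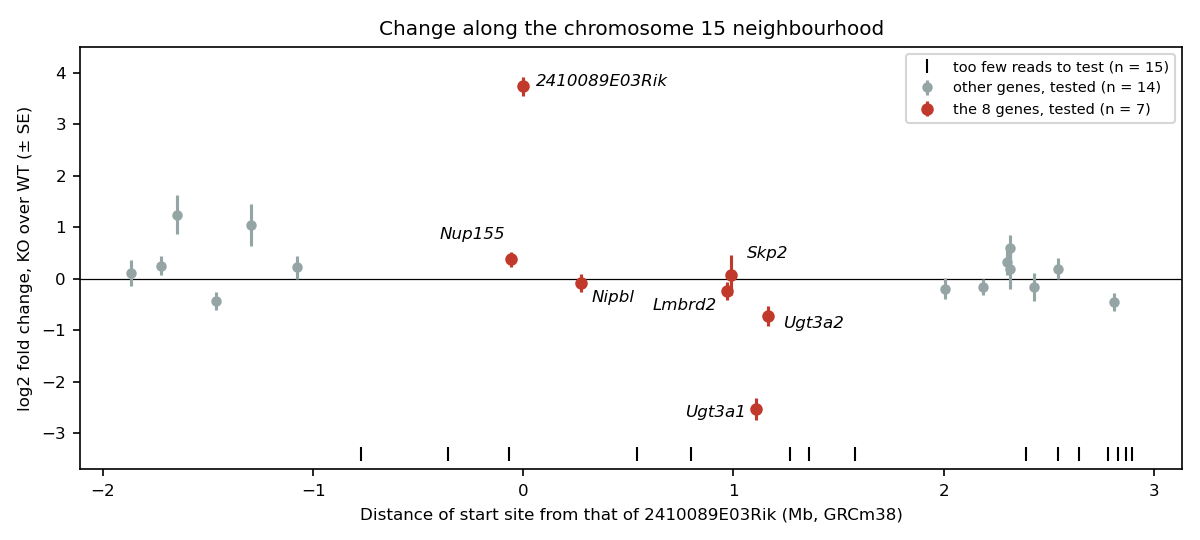
Log2 fold change (KO over WT, with SE) of tested genes against the distance of their start site from that of 2410089E03Rik, for the members (red) and for other genes within 2 Mb of them (grey), with ticks for 15 genes with too few reads. 2410089E03Rik at 3.73 and Ugt3a1 at -2.53 lie apart from all others, which range from -0.73 (Ugt3a2) to 1.24 (Fyb).

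Genes that work with each member, or belong to its family, were set beside it as lists of textbook partners, against the 5.73% called over all tested genes and a median log2 fold change of 0.0083. Over all tested genes 20.3% had an unadjusted p under 0.05. None of 12 tested genes of the ciliary transition zone and transport (32 of 35 listed had a row) passed with edgeR, DESeq2 or limma-voom, 2 had an unadjusted p under 0.05, and the median was 0.14. Intu, a CPLANE partner of 2410089E03Rik, was at 38.7 ± 4.57 CPM in KO and 31.2 ± 5.65 CPM in WT (SD, n = 3 each), and Cep290, a transition zone protein, at 33.0 ± 9.46 CPM in KO and 28.8 ± 4.60 CPM in WT. None of 11 cohesin genes passed with any of the 3 tools, 0 had an unadjusted p under 0.05, and the median was -0.057. The cohesin subunit gene Stag2 was at 200 ± 3.48 CPM in KO and 211 ± 18.2 CPM in WT, and the release factor gene Wapal at 183 ± 18.7 CPM in KO and 178 ± 12.9 CPM in WT.

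None of 24 nuclear pore genes passed with the 3 tools, 1 had an unadjusted p under 0.05, and the median was 0.18. Positive values numbered 20 of 24 here, 8 of 12 for the cilium list, 4 of 11 for cohesin and 7 of 11 for SCF. They numbered 1 of 2 for relatives of Lmbrd2, 2 of 10 for glutamate handling and 8 of 19 for UDP-glycosyltransferases. Over all tested genes the median log2 fold change was 0.0083, and the share of positive values was not computed. Whether the pore genes moved together was not tested. Nup155 itself had a log2 fold change of 0.37. Ranbp2, of the cytoplasmic filaments of the pore, was at 394 ± 41.8 CPM in KO and 329 ± 45.3 CPM in WT, and Tpr, of its nuclear basket, at 185 ± 24.8 CPM in KO and 150 ± 20.1 CPM in WT. None of 11 SCF genes passed with the 3 tools, 3 had an unadjusted p under 0.05, and the median was 0.18. Among them Skp1a was at 203 ± 17.6 CPM in KO and 215 ± 34.9 CPM in WT, and the scaffold gene Cul1 at 84.7 ± 10.5 CPM in KO and 109 ± 8.90 CPM in WT. Neither of the 2 tested relatives of Lmbrd2 passed with the 3 tools or had an unadjusted p under 0.05, with Lmbrd1 at 101 ± 5.90 CPM in KO and 120 ± 17.9 CPM in WT and Lmbr1 at 8.98 ± 2.62 CPM in KO and 6.93 ± 0.374 CPM in WT.

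Glutamate handling had the lowest median of the 7 lists, at -0.28. Of 10 tested genes 2 fell and 0 rose with edgeR. An unadjusted p under 0.05 was found for 5 of the 10, against 20.3% of all tested genes. With DESeq2, and without KO1 or WT1, 4 fell. Glul, the glutamine synthetase of the hepatocytes around central veins, fell to 367 ± 80.6 CPM in KO, against 1324 ± 159 CPM in WT (log2 fold change -1.85, SE 0.19, edgeR adjusted p = 8.03e-05). Slc1a2, the transporter that brings glutamate into cells and a relative of Slc1a3, fell to 100 ± 33.8 CPM in KO, against 364 ± 74.7 CPM in WT (-1.87, SE 0.24, edgeR adjusted p = 0.000585). Slc1a3 reads were too few to compare with it.

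Of 19 tested UDP-glycosyltransferase and UDP-sugar genes outside the UGT3A family, 2 fell and 1 rose with edgeR, and the median was -0.10. An unadjusted p under 0.05 was found for 8 of the 19, against 20.3% of all tested genes. Ugt1a1, which conjugates bilirubin, fell to 120 ± 27.8 CPM in KO, against 275 ± 38.5 CPM in WT (log2 fold change -1.20, SE 0.19, edgeR adjusted p = 0.00185). Ugt1a5 fell to 4.57 ± 2.08 CPM in KO, against 16.1 ± 4.31 CPM in WT, which no longer passed once WT2 was left out (edgeR adjusted p = 0.0638). Ugt1a9 was at 123 ± 17.9 CPM in KO and 81.3 ± 7.86 CPM in WT and passed narrowly (log2 fold change 0.60, SE 0.16, edgeR adjusted p = 0.0489), a call that ended with DESeq2, with limma-voom and without each library other than KO2 (adjusted p up to 0.158). With KO2 as the only KO library its log2 fold change was 0.33 (edgeR adjusted p = 0.409). Ugt1a genes share all but their first exon, so the split of reads between them is uncertain. Hepatocyte marker sums were also lower in KO, as given above, and the groups did not overlap in that sum. Within WT, WT1 had the highest sum (164373 CPM) but the lowest Ugt3a1 (63.6 CPM). Within KO, KO2 had the lowest sum (110625 CPM) and also the lowest Ugt3a1 (10.9 CPM). The part of hepatocyte content in these falls and in that of Ugt3a1 was not tested.

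**Figure D5:**
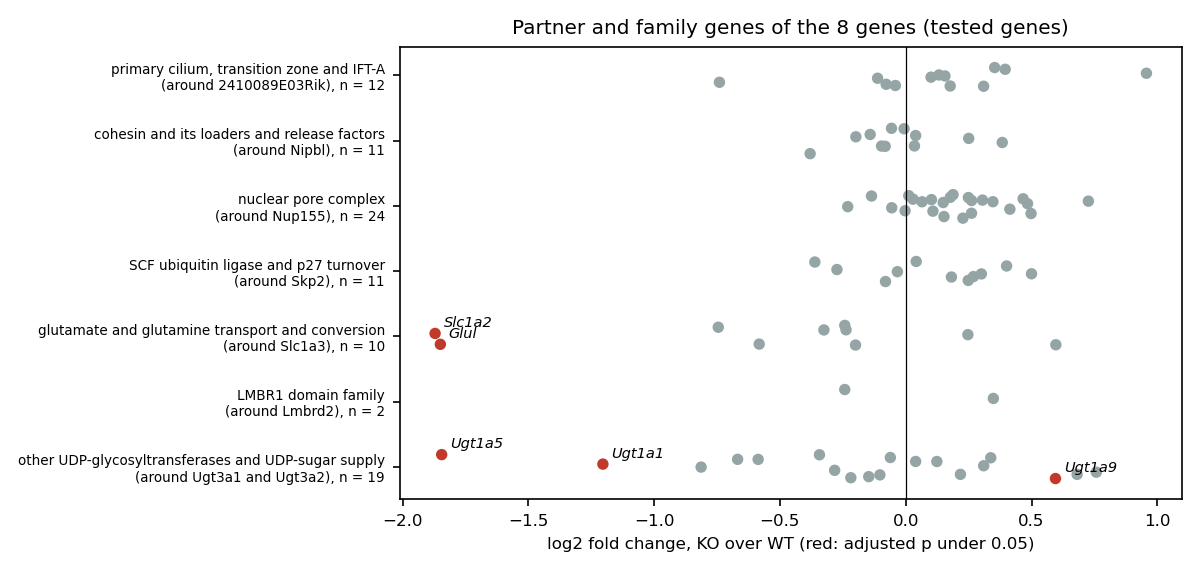
Log2 fold change (KO over WT) of each tested gene in the 7 lists of partners and relatives, with genes past the edgeR threshold in red and named. Called genes occur in 2 of the lists: Glul at -1.85 and Slc1a2 at -1.87 for glutamate handling, and Ugt1a5 at -1.84, Ugt1a1 at -1.20 and Ugt1a9 at 0.60 among the UDP-glycosyltransferases.

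The genes whose log2 CPM followed 2410089E03Rik most closely over the 6 libraries, among 9161 others with a mean of at least 5 CPM, were Dcakd on chromosome 11 (Pearson r = 0.998), Tnfrsf11b on chromosome 15 (0.998) and Ccdc11 on chromosome 18 (0.997). Dcakd was at 21.1 ± 0.0852 CPM in KO and 14.1 ± 0.530 CPM in WT, so the likeness lay in the pattern and not in the size of the difference. Tnfrsf11b was at 9.48 ± 0.253 CPM in KO and 5.41 ± 0.159 CPM in WT, and Ccdc11 at 57.7 ± 6.04 CPM in KO with 0 reads in WT. Closest to Ugt3a1 were Tpst2 on chromosome 5 (0.997), Lpcat3 on chromosome 6 (0.996) and Gcdh on chromosome 8 (0.995). Tpst2 was at 14.6 ± 0.464 CPM in KO and 30.1 ± 1.46 CPM in WT, Lpcat3 at 113 ± 3.71 CPM in KO and 166 ± 5.53 CPM in WT, and Gcdh at 271 ± 3.69 CPM in KO and 336 ± 11.4 CPM in WT. All libraries of both genotypes enter the correlations, so they largely restate the difference between the genotypes. Dcakd, Tnfrsf11b and Gcdh did not pass the edgeR threshold. Lpcat3 passed narrowly (edgeR adjusted p = 0.0368), and in only 1 of the 6 fits that left out 1 library, whereas Tpst2 passed in all 6. These genes were picked as the closest of 9161, so a small SD partly reflects that choice. Dcakd rested on only 34, 39 and 61 reads in KO1, KO2 and KO3, and on 21, 21 and 23 in WT1, WT2 and WT3. Tnfrsf11b rested on fewer still, with 15, 18 and 27 reads in KO1, KO2 and KO3 and 8, 8 and 9 in WT1, WT2 and WT3.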

How the data were processed

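Liver RNA was measured in 3 libraries from Trim24 -/- and 3 from wild type mice, grouped by the sample titles. The deposited files hold raw read counts per gene symbol with no normalization. Per the submitters' processing notes TopHat 1.4.1, HTSeq, edgeR and mm9 were used, with no role given, and neither strand nor annotation is stated. Reads in no gene (93.3% to 95.8%) and ambiguous reads (0.0130% to 0.0213%) entered neither library sizes nor tests.

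The members and all lists were chosen with earlier results of these data known. Counts were fitted with edgeR 4.0.16 in R 4.3.3 (quasi-likelihood F test, TMM factors, genotype as the only term, filterByExpr with minimum count 10). P-values were adjusted by Benjamini-Hochberg over 9180 genes, with calls under 0.05. Fold changes are KO over WT. On simulated counts (8943 genes) 2.04% of 1.5-fold changes were called, rising to 55.1% at 2-fold and 97.7% at 4-fold, with 9 false among 126 calls. Alternatives used DESeq2 1.42.0, limma 3.58.1, other scalings, filters, windows and libraries left out. By rule, named genes were the members, genes called within 2 Mb (0 were), the nearest tested gene on each side of 2410089E03Rik and of Ugt3a1 (all members), from each partner list up to 4 called genes or the 2 most abundant where none was called, and the 3 genes most like 2410089E03Rik and Ugt3a1. Fyb, Osmr, Rictor, Brix1, Amacr, Ranbp3l, Wdr70, Prlr and Agxt2 fall outside it and were named after their values were seen. GENCODE M21 matched 22803 of 23284 symbols (97.9%), 1921 through an older symbol. Promoters came from RefSeq (GRCm38.p6). Python 3.11.15, scipy 1.17.1, Biopython 1.88 and matplotlib 3.10.9 made intervals, alignments and figures.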

Additional observations from a re-analysis of the deposited data

How the results depend on the processing

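2410089E03Rik stayed higher and Ugt3a1 lower in KO, both past the threshold, under all 13 other settings that kept at least 2 libraries per genotype. Both genes were chosen for this difference in the same libraries, so these refits are not independent support for it. With KO2 as the only KO library the values were 3.81 and -2.77, where the spread comes from the WT libraries alone and KO2 is assumed to vary like them, so that fit is not counted here. Ugt3a2 passed at -0.73 with DESeq2, limma-voom and a filter on 1 CPM (reached in 3 libraries), and at -0.74 with no filter. It was at -0.93 with KO2 as the only KO library, a value whose test has the same limit, and lay between -0.95 and -0.55 with 1 library left out. Small differences changed sign: Nipbl was at 0.084 with KO2 as the only KO library and -0.19 to 0.087 with 1 library left out, Skp2 at -0.038 with limma-voom and -0.15 to 0.41, Wapal at -0.035 to 0.10 and Skp1a at -0.19 to 0.037. The cause was not tested.

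Genes called over all tested numbered 576 higher and 509 lower with no filter, 118 and 67 at an adjusted p under 0.01, and 127 to 409 and 95 to 363 with 1 library left out. With no filter 2 genes within 2 Mb were called higher (Fyb and Osmr), and 0 to 1 with 1 library left out. No filter also gave 1 higher SCF gene, 1 higher and 4 lower glutamate genes and 1 lower LMBR1 gene. Glutamate genes called lower were 4 with DESeq2 and 2 to 4 with 1 library left out. The higher UDP-glycosyltransferase gene was lost (0 called) with DESeq2 size factors, DESeq2, limma-voom, the 1 CPM filter and the replicate block, with 0 to 1 higher and 1 to 3 lower when 1 library was left out.

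Libraries with the same replicate number showed no clear common deviation (r = -0.073, 0.079 and 0.035 across genes). KO1 and KO2 correlated best with WT2 (0.043 and 0.079), and KO3 with WT1 (0.089). Values this small cannot decide whether the numbers pair the libraries. With the replicate block 545 genes were called, and 2410089E03Rik and Ugt3a1 were at 3.73 and -2.53. At this depth genes with under about 10 reads per library in both genotypes, such as Slc1a3, could not be compared.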
